A study of Danio rerio with 5 samples.

Results

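Macrophage genes were followed through 5 bulk RNA libraries of whole adult zebrafish (Danio rerio) kidney. The members were 10 genes listed by name for their known place in macrophages: IRF8, spi1b, csf1ra, csf1rb, c1qa, c1qb, c1qc, marco, mpeg1.1 and mfap4. They were found by gene symbol in any letter case and cover 19 of the 32520 Ensembl gene IDs in the count tables. 7 symbols and spi1b, which is listed as SPI1, each belong to 1 ID, which gives 8 genes that can be read singly. MPEG1 is shared by 3 IDs and MFAP4 by 8 IDs, and these are given by ID. Wild-type kidneys of the EK strain gave 3 libraries, numbered 1, 2 and 3. Kidneys of siblings homozygous for the runx1 del8 allele (hg96), a deletion of 8 bp, gave 2 libraries of the same strain, numbered 5 and 6. Fish were about 2.5 months old, and every library came from 3 kidneys pooled before RNA extraction, so the spread between single fish was not measured.

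In adult zebrafish the kidney holds the blood-forming marrow as well as the nephrons, and macrophages arise there beside neutrophils, lymphocytes, red cells and thrombocytes. The transcription factor PU.1, product of spi1b, acts early in the myeloid lineages, and IRF8 directs myeloid precursors to macrophages and away from neutrophils in zebrafish. The CSF1 receptor carries the survival signal of macrophages, and zebrafish have a pair of genes for it. Mature macrophages make complement C1q, which marks targets for uptake, and the scavenger receptor Marco, which binds bacteria. Several of these genes are not exclusive to macrophages: spi1b is also used by neutrophils, irf8 by B cells, and mpeg1.1 is read in some B cells of adult zebrafish. The comparison asks how the genes differ in adult kidneys that lack functional runx1, a transcription factor with a role in the formation of blood stem cells.

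The libraries held from 27631376 to 33752278 reads counted in genes. Levels are given as CPM, the counts per 1e6 after scaling of library sizes, and 3 counts correspond to 0.0876 CPM in the deepest library and 0.113 CPM in the shallowest. Over all genes, edgeR's quasi-likelihood test called 0 of 20386 at an adjusted p under 0.05, which is 0%, and the smallest adjusted p was 0.612. At an unadjusted p under 0.05 it gave 890 genes (4.37%), and the DESeq2 Wald test called 77 of 20208 (0.381%). Wild type 2 and runx1 null 6 held high oocyte RNA: the 11 oocyte markers summed to 1170 and 7301 CPM there, against 6.68 to 15.4 CPM in the other 3 libraries. The oocyte-rich side holds 1 library of each genotype and allows no test. On the other side, wild type 1 and 3 against null 5, edgeR called 0 of 20806 genes. A wild-type level and a null level can differ because there are fewer cells of a type or because each cell holds less of the RNA. They can also differ because RNA of other tissue fills more of a library. Whole-kidney libraries cannot tell these apart.

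The lineage regulators IRF8 and SPI1 had null means at 23.1% and 24.8% of their wild-type means. IRF8 (ENSDARG00000056407) stood at 28.7, 26.7 and 17.6 CPM in wild type 1, 2 and 3, against 8.68 CPM in null 5 and 2.57 CPM in null 6. The groups did not overlap, and the means were 24.3 ± 5.95 CPM (SD, n = 3) for wild type, 5.62 ± 4.32 CPM (SD, n = 2) for null. On the log2 scale, null over wild type, IRF8 changed by -2.11 ± 0.73 (standard error). SPI1 (ENSDARG00000000767), read here as spi1b, stood at 73.6, 51.9 and 18.1 CPM in wild type, against 20.3 CPM in null 5 and 3.39 CPM in null 6. Runx1 null 5 lay just above wild type 3, so the groups overlapped, and the log2 fold change was -2.01 ± 0.996 (standard error). IRF8 was the 1 member of the 8 with an unadjusted p under 0.05 in edgeR, where 4.37% of all tested genes had one. Over all 15 tested member IDs there were 4, of which only IRF8 was lower. The others, 1 MPEG1 ID and 2 MFAP4 IDs, had a higher null mean. The adjusted edgeR p of IRF8, 0.612, like that of SPI1, did not pass. DESeq2 adjusted p-values were 0.233 for IRF8 and 0.467 for SPI1. The paralog spi1a, a second PU.1 gene from the list of myeloid transcription factors, stood at 25.6, 21.7 and 9.44 CPM in wild type, against 11.5 CPM in null 5 and 3.04 CPM in null 6, with overlap.

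The 2 CSF1 receptor genes did not move together. For csf1ra (ENSDARG00000102986), the receptor gene shared by macrophages and pigment cells in zebrafish, the levels were 34.3, 44.3 and 22.5 CPM in wild type 1, 2 and 3, against 19.7 CPM in null 5 and 5.17 CPM in null 6. Both null libraries were below all wild-type libraries, by a narrow margin in null 5, with a log2 fold change of -1.44 ± 0.73 (standard error) and an adjusted p of 0.612 in edgeR. For csf1rb (ENSDARG00000053624), which in zebrafish is tied to macrophages made by adult blood formation, they were 14.8, 14.8 and 3.85 CPM in wild type, against 25.8 CPM in null 5 and 4.52 CPM in null 6. Here null 5 was the highest library and null 6 lay next to wild type 3, so the groups overlapped, at a log2 fold change of 0.44 ± 0.95 (standard error) and an adjusted edgeR p of 0.844. Without null 5 the value for csf1rb was -1.33, the opposite sign. The receptor's ligands il34, csf1a and csf1b overlapped between the groups, and none was called. The most abundant of them, il34, averaged 10.6 ± 5.62 CPM in wild type (SD, n = 3), against 5.78 ± 5.78 CPM in null (SD, n = 2).

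Complement C1q is built from 3 kinds of chain, and its genes kept nearly fixed proportions in every library. They lie next to each other in the RefSeq table of the GRCz12tu assembly. c1qa (ENSDARG00000044613) stood at 25.9, 29.6 and 13.4 CPM in wild type, against 20.6 CPM in null 5 and 4.17 CPM in null 6. c1qb (ENSDARG00000044612) stood at 59.8, 73.9 and 28.5 CPM in wild type, against 36.7 CPM in null 5 and 10.2 CPM in null 6. c1qc (ENSDARG00000095627) stood at 51.01, 55.1 and 19.8 CPM in wild type, against 36.5 CPM in null 5 and 7.94 CPM in null 6. For all 3 genes null 5 lay between wild type 3 and wild type 1, while null 6 was the lowest library. The log2 fold changes were -0.89, -1.202 and -0.92, with standard errors of 0.82, 0.73 and 0.82 and adjusted edgeR p-values of 0.653, 0.612 and 0.646. Without null 6 the values were -0.13, -0.53 and -0.17, and without null 5 they were -2.49, -2.43 and -2.43, so their size rests on single libraries. Counts of c1qa were 0.507, 0.537 and 0.676 times those of c1qc in the wild-type libraries, with 0.563 in null 5 and 0.526 in null 6. Over the 3 pairs of C1q genes, the highest such ratio was at most 1.43 times the lowest, although the levels themselves spanned several-fold. Some pairs with other genes were similar, at 1.46 times for c1qb over spi1a and 1.57 times for csf1ra over c1qb. Others were wider, at 13.6 times for IRF8 over csf1rb.

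The other complement genes were mixed. Of the 12 genes of the classical pathway and complement receptor list that had 1 ID, 11 were tested, 5 had a negative and 6 a positive log2 fold change, and 0 were called. Null 6 was the lowest library for 3 of the 11, where it was for 36.4% of all tested genes, so the count was near that share. These 3 were the anaphylatoxin receptor genes C3AR1 and c5ar1 and the properdin gene cfp, named after their values were seen. Null 5 was above wild type 3 for these 3 and for the C1q genes, but also for every other tested gene of the list. The most abundant genes of the list were c3a.1, the central component made mainly in liver, c4b and the C1 inhibitor gene serping1. c3a.1 stood at 34.8 CPM in wild type 3 and between 739 and 1915 CPM in the other libraries. Liver plasma protein markers, all 7 detected, summed to 1253 CPM in wild type 3 and to between 21313 and 75070 CPM in the others, and their part in the complement values was not tested.

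marco (ENSDARG00000059294), the scavenger receptor, was not lower in null 5. It stood at 152, 136 and 70.4 CPM in wild type, against 220 CPM in null 5 and 50.9 CPM in null 6, so the highest and the lowest library were both null. Wild type averaged 119 ± 43.2 CPM (SD, n = 3), null 136 ± 119.9 CPM (SD, n = 2), and the log2 fold change was 0.18 ± 0.71 (standard error) with an adjusted edgeR p of 0.918. Without null 5 the value was -1.26, and without wild type 3 it was -0.09, so its sign rests on single libraries. Among 14 scavenger and phagocytic receptors from a separate list, 6 were negative and 8 positive, and 0 were called in edgeR. The mannose receptor gene mrc1b averaged 237 ± 146 CPM in wild type (SD, n = 3), against 74.4 ± 72.3 CPM in null (SD, n = 2), with overlap. SCARB1, a lipoprotein receptor gene, was highest in null 6, at 651 CPM, and next highest in wild type 2, at 118 CPM. It stood at 12.3 CPM in wild type 1, 19.2 CPM in wild type 3 and 10.2 CPM in null 5. Null 6 and wild type 2 are the libraries with high oocyte RNA, and the part of oocytes in this gene was not tested.

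**Figure D1:**
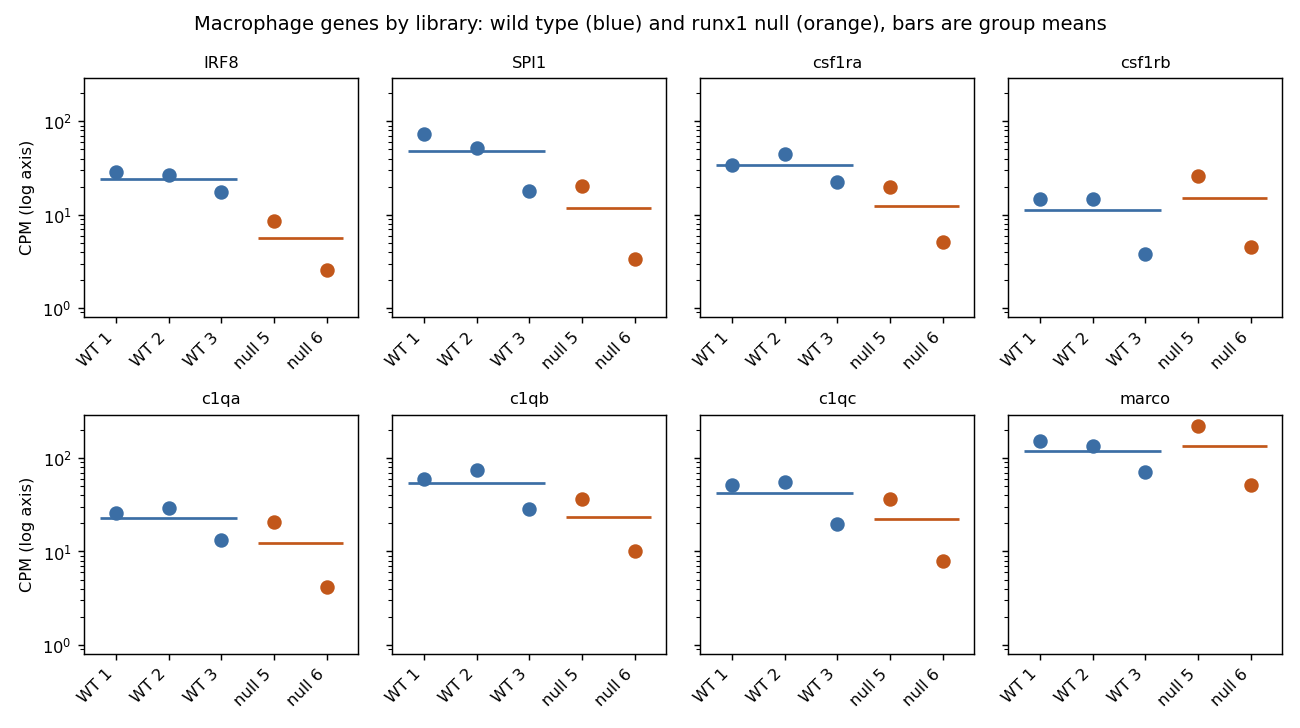
Levels of the 8 macrophage genes with a single ID in each library, in CPM on a log axis shared by all panels; points are libraries (wild type blue, runx1 null orange) and bars are group means. IRF8 and csf1ra are the genes with both null points below every wild-type point, and null 5 is the highest library for csf1rb and marco.

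The gene mpeg1.1 encodes perforin-2, a pore-forming protein that acts on engulfed bacteria, and RefSeq lists it beside the paralogs mpeg1.2 and mpeg1.3. The ID table gives the name MPEG1 to 3 IDs without saying which is which. ENSDARG00000055290 stood at 54.9, 79.3 and 29.8 CPM in wild type, against 52.2 CPM in null 5 and 7.38 CPM in null 6, the same order of libraries as c1qb. Its log2 fold change was -0.88 ± 0.90 (standard error) with an adjusted edgeR p of 0.677. ENSDARG00000043093 stood at 16.3, 12.9 and 6.19 CPM in wild type, at 141 CPM in null 5 and at 11.6 CPM in null 6. Null 5 stood far above the other 4 libraries, null 6 lay inside the wild-type range, and the log2 fold change of 2.69 ± 1.03 (standard error) had an adjusted edgeR p of 0.612. Without null 5 its log2 fold change was -0.05, so the higher null mean rests on that library. Null 5 also had the most nephron RNA: the 12 nephron markers summed to 3920 CPM there and to between 65.7 and 765 CPM in the others, and their part in this value was not tested. Within a library, though, the count of ENSDARG00000043093 came to 0.297, 0.163 and 0.208 times that of ENSDARG00000055290 for wild type 1, 2 and 3, but to 2.71 times for null 5 and 1.57 times for null 6. Both null ratios were thus above all wild-type ratios, by 9.56-fold on the geometric mean, where 24.8% of all pairs of tested genes did not overlap. The exact two-sided permutation p, taken as 2 times the smaller one-sided p, was 0.2. That is the smallest this form of the test allows for 3 against 2 libraries. The 2 null libraries differed in what moved. In null 5 ENSDARG00000043093 was high, while in null 6 it lay inside the wild-type range and ENSDARG00000055290 was below its own. The third ID, ENSDARG00000078569, had 0 counts in every library.

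MFAP4 is a secreted fibrinogen-like protein whose promoter is used to mark macrophages in zebrafish. Its name is shared by 8 IDs, of which 5 passed the filter on low counts, and they did not behave as 1 gene. Near-identical copies can lose reads that align more than once, so their levels are uncertain. ENSDARG00000090783 stood at 14.96, 10.2 and 6.35 CPM in wild type, against 7.84 CPM in null 5 and 2.71 CPM in null 6, with overlap. ENSDARG00000089667 was below in both null libraries, at 0.900 and 0.0584 CPM against 1.51 to 4.14 CPM, where the null 6 value is 2 counts. ENSDARG00000090557 was above in both null libraries, at 13.2 and 22.6 CPM against 1.02 to 6.85 CPM. The 3 log2 fold changes were -0.99, -2.38 and 2.18, and the adjusted edgeR p-values were 0.618, 0.612 and 0.612. ENSDARG00000116066 stood at 51.7 CPM in null 6 and between 0.381 and 1.95 CPM elsewhere. Its log2 fold change was 4.64, with an adjusted edgeR p of 0.612, and 0.63 without null 6. ENSDARG00000111491, which was not tested, had 460 counts in null 6 and 1 to 8 counts elsewhere. Null 6 is the library with the most oocyte RNA, and the part of oocytes in these values was not tested. ENSDARG00000088745 stood at 2.04 to 5.81 CPM in wild type, against 4.02 CPM in null 5 and 1.11 CPM in null 6, at a log2 fold change of -0.50 that turned positive without null 6 (0.18) or without wild type 1 (0.09). The IDs ENSDARG00000038681 and ENSDARG00000038683 had at most 3 counts in a library except for 23 counts of the latter in null 5.

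**Figure D2:**
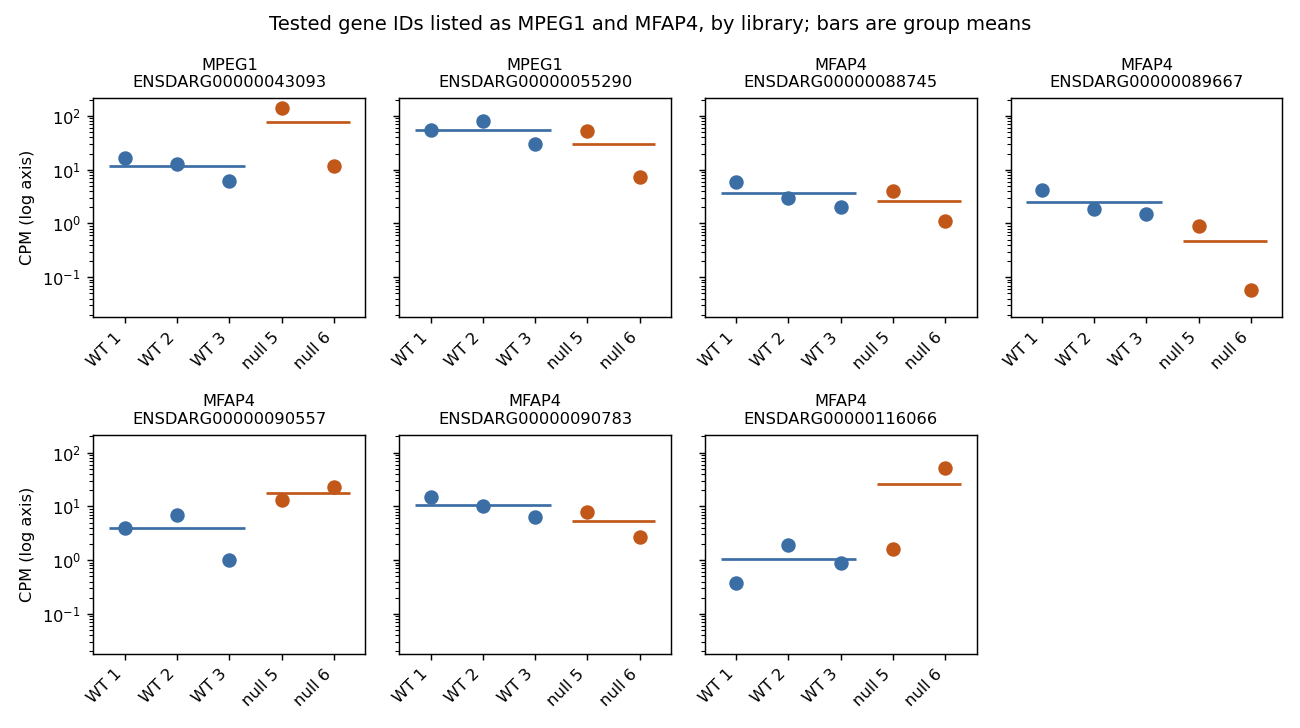
Levels of the 7 tested IDs listed as MPEG1 or MFAP4 in each library, in CPM on a shared log axis, with points and group means coloured as for wild type (blue) and runx1 null (orange). Null 5 stands alone for MPEG1 ENSDARG00000043093 and null 6 for MFAP4 ENSDARG00000116066.

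All 8 genes with a single ID passed the filter on low counts, and edgeR called 0 of them, as did DESeq2. The log2 fold change was negative for 6 of 8 members, where it was negative for 41.8% of all tested genes, and -1 or lower for 4 of 8, against 12.1%. The members' median was -1.06, and the median of all tested genes was 0.24. Levels in both null libraries were under the whole wild-type range for 2 of 8 members, IRF8 and csf1ra, against 14.8% of tested genes, and over it for 0 of 8, against 11.1%. Null 6 was the lowest of the 5 libraries for 7 of 8 members, against 36.4% of tested genes, csf1rb being the exception. Among wild-type libraries, number 3 was the lowest for all 8, by between 1.64-fold for IRF8 and 4.08-fold for SPI1 below the highest. The 2 null libraries differed more than this, with null 5 above null 6 by 3.38-fold for IRF8 to 6.01-fold for SPI1. The mean log2 CPM of the 8 genes came to 5.45, 5.47 and 4.23 for wild type 1, 2 and 3, with 4.88 for null 5 and 2.74 for null 6, so null 5 lay inside the wild-type range. Without null 6 the members' median was -0.35, and without null 5 it was -2.46.

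The difference from wild type was larger on the oocyte-rich side of the split. The libraries of that side were not matched in oocyte RNA. The oocyte markers summed to 7301 CPM in null 6 and to 1170 CPM in wild type 2, and the part of this in the differences was not tested. Null 6 was below wild type 2 for 8 of 8 members, by a median of -2.82 on the log2 CPM scale and between -3.91 for SPI1 and -1.42 for marco. Null 5 was below the mean of wild type 1 and 3 for 4 of 8 members, with a median of -0.01 and a range from -1.37 for IRF8 to 1.76 for csf1rb. Over all tested genes the medians of these differences were 0.04 and 0.06. IRF8 and csf1ra were lower on both sides, a direction fixed by the absence of overlap, and the sizes were -3.34 and -1.37 for IRF8 and -3.08 and -0.49 for csf1ra. SPI1 and c1qb were also lower on both sides, c1qb by -0.17 on the second. Without wild type 2 and null 6, a check added after seeing the data, the members' median log2 fold change was -0.14 and 4 of 8 were negative.

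The ratio of 2 genes inside a library does not depend on how libraries are scaled, and these ratios set the members in an order. Of the 28 pairs among the 8 genes, 22 had null ratios that did not overlap the wild-type ratios, where 24.8% of all pairs of tested genes did not. The share over all pairs was taken from differences of log2 CPM, and the members' ratios from counts. The pairs share genes and libraries. Each of the 22 had an exact two-sided permutation p of 0.2, the smallest possible when the smaller one-sided p is multiplied by 2. The 6 overlapping pairs were the 3 C1q pairs, csf1rb with marco, and SPI1 with IRF8 and with csf1ra. IRF8 was lower in both null libraries relative to 6 of its 7 partners, and SPI1 relative to 5 of 7. marco and csf1rb were each higher relative to 6 of 7. The C1q genes lay between, each lower relative to 2 partners, marco and csf1rb, and higher relative to 3.

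The sizes of these shifts differed by pair. The geometric mean ratio between the groups was 0.802 for csf1ra over c1qb and 0.173 for IRF8 over csf1rb. Pairs with several-fold shifts follow. There were 0.190, 0.196 and 0.249 IRF8 counts per marco count in wild type 1, 2 and 3, and 0.0394 and 0.0505 in null 5 and 6, a geometric mean ratio of 0.212 between the groups. csf1ra counts were 2.33, 2.99 and 5.85 times those of csf1rb in wild type and 0.765 and 1.14 times in the null libraries, a geometric mean ratio of 0.272. Counts of csf1rb were 0.200, 0.286 and 0.213 times those of SPI1 in wild type and 1.27 and 1.34 times in the null libraries, 5.65-fold higher. In these selected pairs the 2 null libraries lay nearer to each other than in their levels, which differed several-fold. Other pairs differed more between them. c1qb over SPI1 was 1.81 in null 5 and 3.03 in null 6, and IRF8 over csf1rb was 0.336 and 0.568. Set against ptprc, the leukocyte-wide gene for CD45, IRF8 stood at 0.333, 0.379 and 0.406 in wild type and 0.131 and 0.271 in the null libraries, without overlap. c1qb per ptprc overlapped, at 0.691, 1.05 and 0.659 against 0.556 and 1.08, as did c1qa and c1qc per ptprc. csf1ra per ptprc overlapped too, at 0.397, 0.629 and 0.521 against 0.298 and 0.545. SPI1 per ptprc was below in both null libraries, and csf1rb per ptprc was above in both. For marco per ptprc the null values of 3.33 and 5.37 both exceeded the wild-type range of 1.63 to 1.93. Each ratio to ptprc without overlap had an exact two-sided permutation p of 0.2, the smallest this test allows. Of all pairs of tested genes, 24.8% did not overlap.

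**Figure D3:**
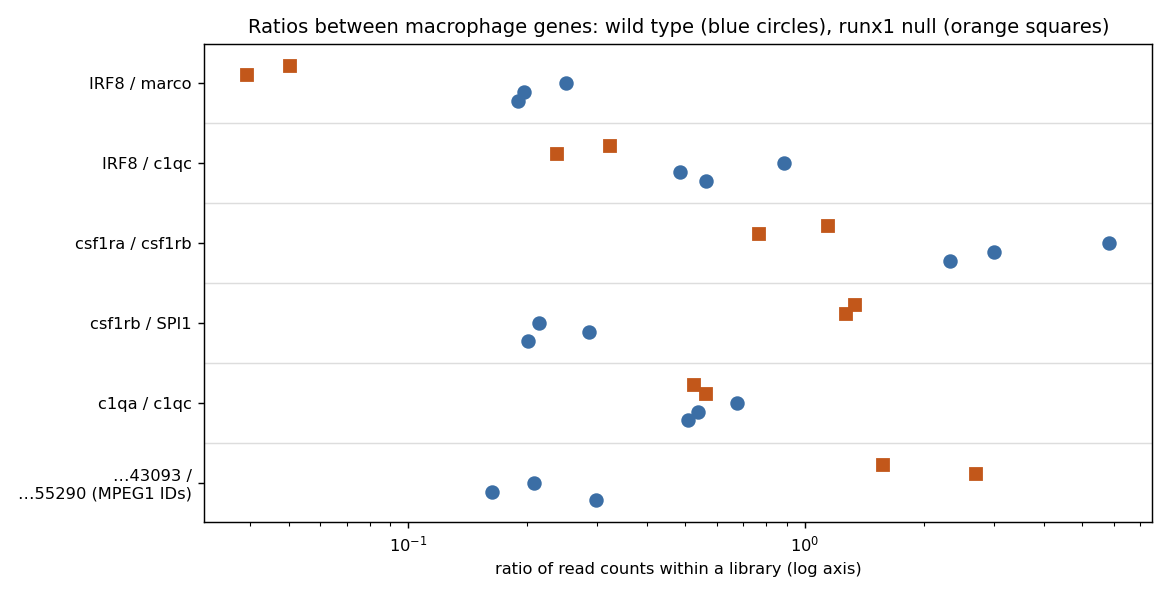
Ratios of read counts between pairs of macrophage genes within each library, on a log axis; wild type libraries are blue circles and runx1 null libraries orange squares, and the lowest row sets MPEG1 ENSDARG00000043093 over MPEG1 ENSDARG00000055290. The rows are selected pairs, in which the null squares stand apart from the circles except for c1qa over c1qc. Other overlapping pairs, such as csf1rb over marco and IRF8 over SPI1, are not shown.

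Wider phagocyte lists gave the setting of these members. Among 16 tested genes of myeloid immunoreceptor signalling, 15 were negative and 0 were called, and the median was -0.78 on the log2 scale. The most abundant, cd74a and cd74b, which encode the MHC class II invariant chain, had log2 fold changes of -0.03 and 0.00, and LCP1, an actin-bundling protein of leukocytes, had -1.50. All 6 genes of the phagocyte NADPH oxidase list, which makes the respiratory burst in neutrophils and macrophages, were negative, with a median of -1.54 and 0 called. Its catalytic subunit gene cybb averaged 37.1 ± 28.1 CPM in wild type (SD, n = 3), against 9.09 ± 10.96 CPM in null (SD, n = 2). The 9 tested myeloid transcription factors had a median of -0.42, with 6 negative, 3 positive and 0 called. The most abundant were CEBPA at -0.79, NR1H3 at -0.42 and CEBPB at -0.87. The 3 positive ones were IRF5 at 1.62, BATF3 at 1.63 and mafbb at 0.26, and IRF5 and BATF3 were highest in null 6.

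Lists of genes that act inside mature macrophages but are also read in many other cells had medians from -0.63 to 0.40. The 24 tested lysosome and phagosome genes had a median log2 fold change of -0.13, with 14 negative, 10 positive and 0 called. In both null libraries the cathepsin gene ctsla was above all wild-type libraries, at 844 and 838 CPM against 208 to 509 CPM. PSAP and LGMN, a lysosomal activator protein and a lysosomal protease, overlapped. The 8 lipid handling genes had a median of 0.40, led in level by apoc1, apoeb and ABCA1. The 8 tested iron and heme recycling genes had a median of -0.63, and 3 of 8 were below in both null libraries, where 14.8% of tested genes were, among them the ferritin gene fth1a and the transferrin receptor gene tfr1a. Its paralog tfr1b was above in both, where 11.1% of tested genes were. fth1a and tfr1a are also highly read in red cells.

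Of 15 macrophage cytokine and chemokine receptor genes with 1 ID, 11 passed the filter, 6 were negative, 5 positive and 0 called. In both null libraries 2 of the 11 were below, where 14.8% of all tested genes were, so the count was near that share. These were tgfb1b, a growth factor gene, and cxcr3.2, a chemokine receptor gene that guides macrophages in zebrafish. cxcr3.2 stood at 18.9, 18.03 and 4.99 CPM in wild type, against 4.34 CPM in null 5 and 0.788 CPM in null 6, a log2 fold change of -2.44 ± 1.06 (standard error) with an adjusted edgeR p of 0.612. The inflammatory cytokine genes tnfa, il6 and IL10 were under 0.5 CPM in every library and were not tested.

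**Figure D4:**
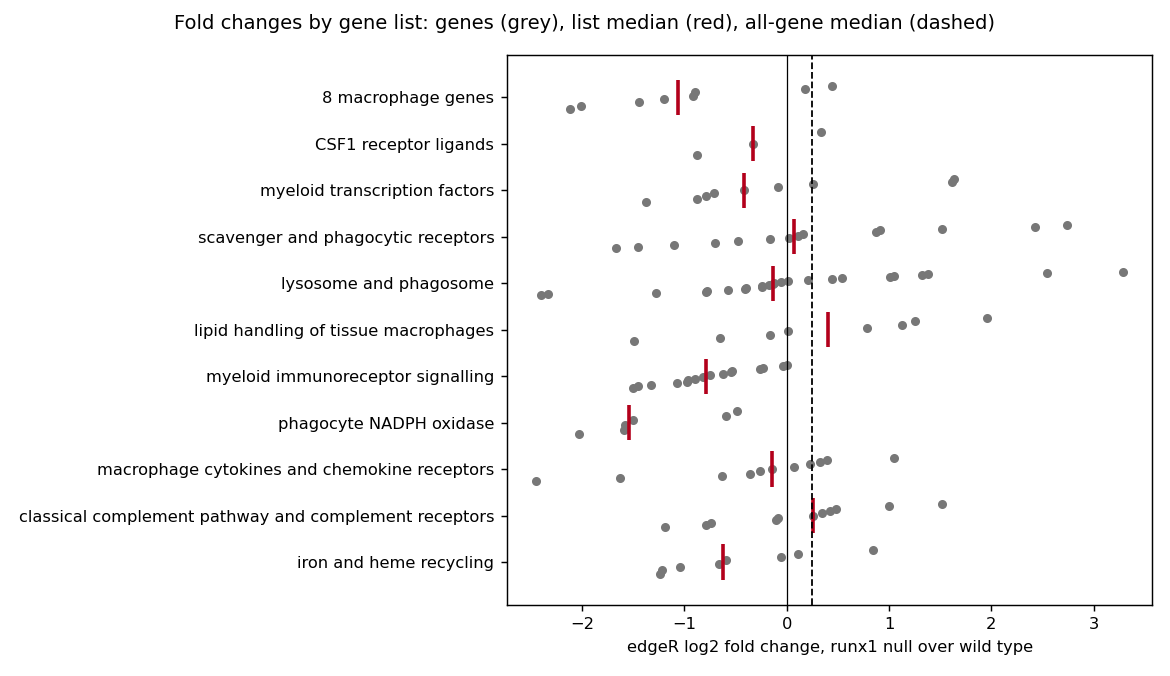
Log2 fold changes, runx1 null over wild type, of the tested genes of the macrophage members and the wider phagocyte lists (grey points), with the list median in red; the solid line marks 0 and the dashed line the median of all tested genes, 0.24. The 8 macrophage genes, the NADPH oxidase list and the immunoreceptor signalling list lie mostly left of 0, and neither edgeR nor DESeq2 called a gene shown.

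Markers of neutrophils, B cells and red cells were also lowest in null 6. The 9 neutrophil markers with 1 ID summed to between 217 and 1286 CPM in wild type, against 474 CPM in null 5 and 84.7 CPM in null 6, and the median log2 fold change was -1.50. For the 7 B-cell markers the sums were 44.9 to 96.6 CPM in wild type, against 24.0 CPM in null 5 and 5.55 CPM in null 6, and cd79a was at 0 counts in null 6. B-cell genes had a median of -2.76, with 6 of 7 below in both null libraries, where 14.8% of tested genes were. DESeq2 called 2 of them, cd79a (adjusted p = 0.00875) and cd79b (adjusted p = 0.0302), where it called 0.381% of all genes, and edgeR called 0. All 6 thrombocyte markers were below in both null libraries, at a median of -1.73, against the same 14.8%. DESeq2 called 1 of them, itga2b (adjusted p = 0.000278), against the same 0.381%, and edgeR called 0. Neutrophils and B cells share SPI1 and IRF8 with macrophages, and their part in the values of these genes was not tested. The 11 erythroid markers summed to between 40035 and 70928 CPM in wild type, against 47010 CPM in null 5 and 6562 CPM in null 6. With libraries scaled to the erythroid markers, the members' median was 0.31 and 3 of 8 members stayed negative, while the median of all tested genes moved to 2.34. Relative to that median, the members stood at -2.04 under erythroid scaling and at -1.30 under the scaling used throughout. With the latter scaling, the difference was -0.31 without null 6 and -2.37 without null 5. It was -0.14 without wild type 2 and null 6, so its size rests on single libraries.

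The genes with a profile most like that of the members were found among 12232 tested genes with a symbol and a mean of at least 5 CPM. The measure was the root mean square distance between centred log2 CPM values over the 5 libraries and the mean of the 8 members. The 8 nearest were CEBPB, rgs18, blnk, AGAP2, ARPC1B, MTMR11, ptpn22 and ENSDARG00000098899, which has a clone-type name, at distances from 0.0890 to 0.168, where the median of all candidates was 1.197. CEBPB, which encodes a C/EBP factor, stood at 62.2, 60.3 and 23.8 CPM in wild type, against 43.2 CPM in null 5 and 10.01 CPM in null 6. The genes were picked for this likeness, so their order of libraries is no separate result. blnk is on the B-cell list, and CEBPB is on the list of myeloid transcription factors. Among the members themselves, c1qc and c1qa lay nearest to the mean profile, at 0.0840 and 0.0981, and csf1rb lay farthest, at 0.756. Each member is part of that mean, and the C1q genes, alike in profile, weigh on it together.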

How the data were processed

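Total RNA of whole kidneys was sequenced after a paired-end TruSeq RNA v2 preparation, per the labels' protocols. The authors deposited 1 table per library of raw read counts per Ensembl gene, not normalized, each closed by 5 counts of reads given to no gene, between 28.1% and 39.4% of reads. HISAT2 2.2.1.0, HTSeq 0.11.4, DESeq2 and GRCz11 are named without roles per the submitters' processing notes. The strand setting and annotation release are not given in the sources used here, so overlapping, antisense and near-identical genes are uncertain. Nothing in the labels says how the pools were drawn beyond 3 kidneys each, and p-values measure only the spread between these libraries.

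Members and gene lists were chosen with earlier results of these data known. Names were matched by symbol in any letter case, or otherwise through a RefSeq synonym (GRCz12tu table) that belongs to no other gene, which is how spi1b was read from SPI1. Lists used names with 1 ID. From each wider list the 3 genes with the highest mean CPM could be named, and others were named after their values were seen.

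Low counts were removed with filterByExpr at a minimum count of 10 and a minimum total of 15, and libraries were scaled with TMM. The genotypes were compared with edgeR 4.0.16 (robust quasi-likelihood, two-sided, Benjamini-Hochberg over 20386 genes, threshold 0.05). DESeq2 1.42.0 was an alternative, with its own size factors and filter. Log2 CPM used a prior count of 2. The share of all gene pairs without overlap was taken from log2 CPM, while the ratios printed are of counts. An adjusted p above the threshold does not show that levels were equal. As edgeR called 0 of all 20386 genes, a count of 0 called in a list says little about that list. No sequence is shown. Fits ran in R 4.3.3. Tables used Python 3.11.15 with pandas 2.3.3, and plots used matplotlib 3.10.9. Floors cover counting error only.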

Additional observations from a re-analysis of the deposited data

How the results depend on the processing

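No paired analysis was possible because no replicate number occurs in both genotypes. The count of members called was 0 under every alternative run, and the count over all genes was 0 under each except the DESeq2 Wald test, with 77. The members' median log2 fold change of -1.06 kept its sign except with scaling to erythroid markers (0.31). Leaving out 1 library each gave medians from -2.46 to -0.35, and leaving out both libraries with high oocyte markers, added after seeing the data, gave -0.14. With all 15 tested IDs the median was -0.89.

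With erythroid scaling the sign turned for c1qa (0.38), c1qb (0.25), c1qc (0.37), MPEG1 ENSDARG00000055290 (0.18), MFAP4 ENSDARG00000088745 (0.97) and MFAP4 ENSDARG00000090783 (0.61). This scaling raised the median over all tested genes to 2.34. Without both oocyte-rich libraries it turned for c1qa (0.034), c1qc (0.014), MPEG1 ENSDARG00000055290 (0.27) and MFAP4 ENSDARG00000088745 (0.0034). Leaving out 1 library each, the ranges were -1.33 to 1.24 for csf1rb, -1.26 to 0.92 for marco, -0.052 to 3.61 for MPEG1 ENSDARG00000043093 and -1.73 to 0.18 for MFAP4 ENSDARG00000088745. IRF8 ranged from -3.27 to -1.45, csf1ra from -2.73 to -0.74 and SPI1 from -3.85 to -1.20. The ranges were -2.49 to -0.13 for c1qa, -2.43 to -0.53 for c1qb, -2.43 to -0.17 for c1qc and -2.92 to -0.037 for MPEG1 ENSDARG00000055290. The causes were not tested. Other scalings, filters and the option without robust fitting turned no sign.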

Other observations

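Numbered mfap4 paralogs with a symbol of their own, which are not among the members, were looked at after the MFAP4 IDs. Of 7 such genes, all tested, 6 had a negative log2 fold change, 4 lay below in both null libraries, where 14.8% of tested genes did, and edgeR called 0. The most abundant, mfap4.6, stood at 442, 419 and 205 CPM in wild type 1, 2 and 3 against 223 CPM in null 5 and 19.4 CPM in null 6. mfap4.8 stood at 81.0, 76.4 and 39.3 CPM in wild type against 21.6 CPM in null 5 and 1.58 CPM in null 6, without overlap, at a log2 fold change of -2.50 ± 1.12 (standard error) and an adjusted edgeR p of 0.612. The exception, mfap4.4, was above in both null libraries, at 2.09 and 1.49 CPM against 0.469 to 1.32 CPM. T-cell markers were positive for 8 of 8 genes, where 11870 of 20386 tested genes were, and edgeR called 0. Their median was 0.91, against 0.24 for all tested genes. Of them 2, TCF7 and il7r, were above in both null libraries, where 11.1% of tested genes were. The 2 sides of the oocyte split differed: null 5 was above the mean of wild type 1 and 3 by a median of 1.67 on the log2 CPM scale, with 0 of 8 genes lower, while null 6 was below wild type 2 for 6 of 8 genes, at a median of -0.38.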
